A study of Homo sapiens with 12 samples.

Results

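The proteasome and the enzymes that attach and remove ubiquitin were followed through 5 drug treatments of H460 cells, a human lung cancer cell line. The members were the genes whose symbol in the platform annotation starts with PSMA, PSMB, PSMC, PSMD or PSME, which name proteasome genes, or with UBE2, UBA, USP and a digit, or CUL and a digit, which name ubiquitin genes. By this rule 46 of the 5499 named genes on the array were members, 18 of the proteasome and 28 of the ubiquitin system. A symbol rule is not a rule of function. USP6NL, a GTPase-activating protein for Rab proteins, UBAP2L, an RNA-binding protein, and UBAC1, a partner subunit of a ubiquitin ligase, came in by name and cleave or activate no ubiquitin themselves.

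Each of the 12 arrays held RNA of treated cells in one channel and RNA of untreated cells in the other, and every treatment lasted 24 h. The doses were 1 µM 5-fluorouracil (5-FU), 0.2 µM cytarabine (spelled cytarabin in the labels), 5 µM cisplatin, 5 nM paclitaxel and 0.2 µM cytochalasin D. 5-FU was measured on 4 arrays, as replicates 1 and 2 in a forward orientation with treated RNA in channel 2 and in a reversed orientation with treated RNA in channel 1. Each other drug had 2 arrays, all with treated RNA in channel 1. Neither separate cultures nor shared untreated RNA can be read from the labels. The p-values therefore measure the spread between replicates, taken over the drugs together, and this spread may be technical. A 5-FU replicate is the mean of the forward and reversed array of the same number. Disagreement within such a pair therefore does not enter the p-values. That such a pair is a dye swap of 1 sample is an assumption from the numbers. Over all features forward array 1 correlated at 0.527 with reversed array 1 and at 0.524 with reversed array 2. Forward array 2 correlated at 0.49 with reversed array 1 and at 0.486 with reversed array 2. The other pairing was not tested. Since all drugs may share untreated RNA, values of different drugs are set side by side and no likeness between drugs is computed. All values are log2 ratios of treated over untreated, centred on each array's median. The log base is taken as 2 and is not stated. The numerator is not stated either. It was set as the sign that makes MDM2, a p53 target, positive in 5-FU (mean 1.48, n = 2 replicates), so every direction given here is likely and not certain.

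The ubiquitin system marks proteins for destruction in steps. An activating enzyme (E1, the true UBA genes) loads ubiquitin onto a conjugating enzyme (E2, the UBE2 genes), and a ligase, often built on a cullin scaffold (CUL genes), directs it to a substrate. Ubiquitin-specific proteases (USP genes) take ubiquitin off again. The proteasome degrades the marked protein. Its core particle is a barrel of PSMA and PSMB subunits, its regulatory particle has an ATPase ring of PSMC subunits and a set of PSMD subunits that bind, deubiquitinate and position the substrate, and PSME proteins are alternative caps.

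How many members were measured depended on the drug. The 5-FU arrays held values for 31 to 36 of the 46 members and the other arrays for 41 to 44, and 25 members had a value on every array. On the 5-FU arrays 21.5 to 46.7% of all probes lacked a value, against 6.44 to 14.5% on the others. Of the 46 members, 27 had values on both pairs of forward and reversed 5-FU arrays, 6 on 1 pair and 13 on none. These 13 could not be tested against untreated cells in any drug with the channel effect in the model, and they are given by their array values. Of 7 cell type marker genes listed, 6 were on the array. A ratio holds no level, so neither the cell type nor the amount of a gene relative to another can be read from it, and fewer cells with a transcript and less transcript per cell cannot be told apart.

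Each drug was tested against 0 with limma on 2 replicates, with a term for the channel effect that only the 5-FU arrays can give, and p-values were adjusted by the Benjamini-Hochberg method over all features tested. The spread between replicates was estimated for each gene over all drugs of the fit together. The SE and p-value of a drug therefore take in the replicates of the other drugs too. In 5-FU, PSMB5 had replicate means of -0.21 and -0.20 and an SE of 0.12, while its cisplatin arrays were at -0.09 and -0.56. A member rose or fell where the adjusted p was under 0.05. Standard errors for the 4 drugs other than 5-FU may be too small, because their channel effect was taken from the 5-FU arrays. A fit without the channel term was run beside it. For the 6 pairs among those 4 drugs the channel effect cancels and no term is needed.

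**Figure D1:**
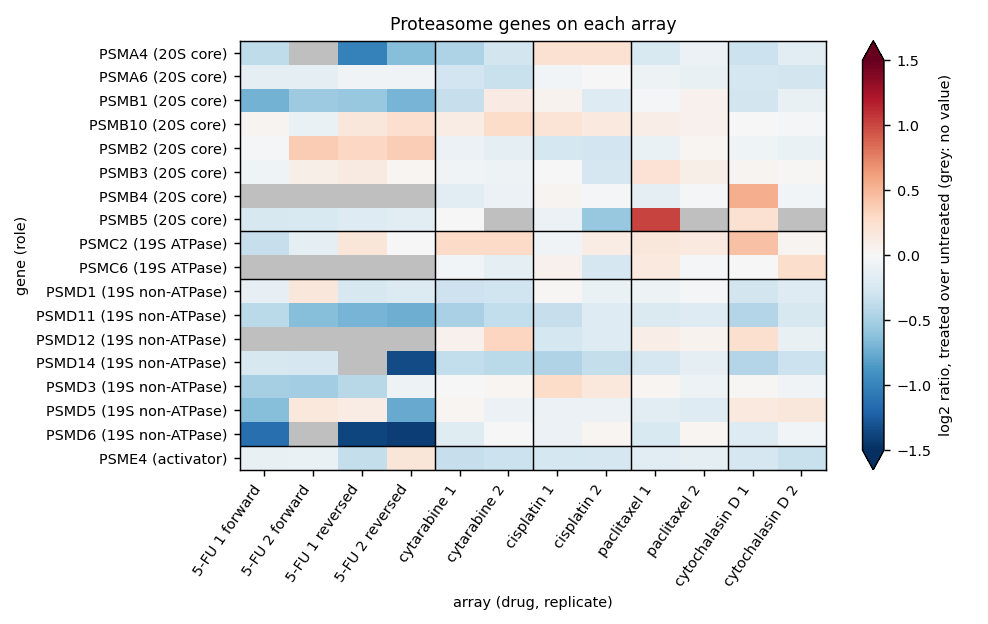
Log2 ratio of treated over untreated RNA for the 18 proteasome genes (rows, grouped by role) on the 12 arrays (columns), blue below 0, red above 0 and grey where no value was given. PSMD6 is darkest in 5-FU, with values of -1.13, -1.38 and -1.41, and PSMD11 is blue on all 12 arrays.

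In 5-FU, several proteasome genes were lower, most of them PSMD genes of the regulatory particle. Of the 12 proteasome genes tested, 4 fell (PSMB1, PSMD3, PSMD5 and PSMD11) and 1 rose (PSMB2). Of the 15 ubiquitin genes tested, 2 fell (CUL4A and UBAC1) and 1 rose (UBE2G2). Together 8 of 27 members passed, against 16.8% of all features tested in this comparison. The members had 2 higher and 6 lower, and all features had 5.04% higher and 11.8% lower. The median log2 ratio was -0.10 over the proteasome genes tested, 0.00 over the ubiquitin genes and 0.01 over all features.

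PSMD11, a scaffold subunit of the lid of the regulatory particle, was at -0.41 and -0.64 on the forward 5-FU arrays and at -0.70 and -0.73 on the reversed ones. Its fitted value was -0.62 ± 0.07 (SE, n = 2 replicates), a 1.54-fold fall with a limma adjusted p of 0.000385. PSMD11 was below 0 on all 12 arrays of the series, and none of the 8 arrays of the other drugs except cytarabine 1 (-0.49) and cytochalasin D 1 (-0.44) lay below the highest 5-FU array. With the channel term it passed in 5-FU and cytarabine, and not in cisplatin, paclitaxel or cytochalasin D. The share of all features below 0 on every array was not counted. PSMD3, another lid subunit, was at -0.49, -0.52, -0.41 and -0.08 on the 5-FU arrays in the order forward 1, forward 2, reversed 1 and reversed 2. It fell by 0.38 on the log2 scale (SE 0.06, limma adjusted p = 0.00306), and its reversed array 2 stood nearest to 0. In cisplatin PSMD3 was at 0.28 and 0.16, so the arrays of these drugs did not overlap.

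PSMD6, a lid subunit too, had the lowest value of any proteasome gene. It was at -1.13 on forward array 1 and at -1.38 and -1.41 on the reversed arrays, while forward array 2 gave no value. With 1 complete pair it could not be tested for 5-FU with the channel term. Without that term it was lower by 1.33 (log2 ratio -1.33, limma adjusted p = 6.29e-05, with the reversed array standing alone for replicate 2). Every array of the other 4 drugs had PSMD6 between -0.22 and 0.03, so all 3 5-FU values lay well below all 8 others. PSMD14, the deubiquitinase of the lid, was at -0.24 and -0.25 on the forward arrays and at -1.34 on reversed array 2, and was not measured on reversed array 1. Without the channel term it passed as lower (-0.52, limma adjusted p = 0.0183). That wide gap between orientations gives PSMD14 a channel effect of -0.54, from 1 pair of arrays.

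PSMD5 is named as a subunit and acts as an assembly chaperone of the regulatory particle. It was at -0.64 and 0.16 on the forward arrays and at 0.12 and -0.75 on the reversed ones, so the 5-FU arrays lay on both sides of 0. The mean of forward and reversed arrays was nevertheless -0.26 in replicate 1 and -0.30 in replicate 2, and on these means PSMD5 passed (-0.28 ± 0.05, limma adjusted p = 0.00471). The small error rests on averaging arrays paired by number, which is an assumption, and the call was lost without 5-FU replicate 2.

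The upstream sequences of PSMD3, PSMD5, PSMD6, PSMD11 and PSMD14 from RefSeq are shown because these PSMD genes passed as lower in 5-FU with or without the channel term. Each is the 250 bases before the annotated start (GRCh38.p14), 5′ to 3′ on the gene's strand, with capitals marking matches on either strand to TGACNNNGC (the core of the antioxidant response element), CCAAT or TTTGAA (the cell cycle homology region). PSMD3 lies on the plus strand at chr17:39980557-39980806, PSMD5 on the minus strand at chr9:120842923-120843172, PSMD6 on the minus strand at chr3:64023495-64023744, PSMD11 on the plus strand at chr17:32444260-32444509 and PSMD14 on the plus strand at chr2:161308175-161308424.
PSMD3: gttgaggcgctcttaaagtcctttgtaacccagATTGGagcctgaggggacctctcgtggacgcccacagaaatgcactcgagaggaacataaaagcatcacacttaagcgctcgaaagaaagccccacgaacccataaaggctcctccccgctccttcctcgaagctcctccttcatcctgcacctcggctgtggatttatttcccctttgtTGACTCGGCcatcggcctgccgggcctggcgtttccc
PSMD5: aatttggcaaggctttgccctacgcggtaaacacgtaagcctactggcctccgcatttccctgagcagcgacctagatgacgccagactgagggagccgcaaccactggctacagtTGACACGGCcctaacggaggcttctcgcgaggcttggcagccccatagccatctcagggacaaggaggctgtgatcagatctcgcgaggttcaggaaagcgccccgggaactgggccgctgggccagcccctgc
PSMD6: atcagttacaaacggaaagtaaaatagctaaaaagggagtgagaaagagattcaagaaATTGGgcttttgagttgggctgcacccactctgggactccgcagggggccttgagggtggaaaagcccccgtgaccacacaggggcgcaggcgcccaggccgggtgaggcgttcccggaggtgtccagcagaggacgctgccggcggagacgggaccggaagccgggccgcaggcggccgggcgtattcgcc
PSMD11: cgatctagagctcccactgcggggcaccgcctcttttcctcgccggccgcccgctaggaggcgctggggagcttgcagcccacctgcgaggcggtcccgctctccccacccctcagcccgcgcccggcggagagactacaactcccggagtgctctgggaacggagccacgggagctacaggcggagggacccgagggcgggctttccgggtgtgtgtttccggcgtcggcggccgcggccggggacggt
PSMD14: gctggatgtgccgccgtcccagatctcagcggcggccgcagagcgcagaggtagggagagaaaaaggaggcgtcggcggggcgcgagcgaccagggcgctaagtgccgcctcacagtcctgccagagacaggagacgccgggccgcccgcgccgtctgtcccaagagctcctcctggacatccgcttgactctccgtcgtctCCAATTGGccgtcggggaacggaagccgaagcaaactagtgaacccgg

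PSMD3 has TGACTCGGC from base -37 to -29 and PSMD5 has TGACACGGC from -134 to -126, counted from the start. PSMD14 has CCAAT on both strands, overlapping, from -48 to -41. The window of PSMD11 holds none of the motifs. An upstream window was found for 38 of the 46 members. TGACNNNGC was present in 5 of 17 proteasome windows (PSMB3, PSMD12, PSMD3, PSMD5 and PSME4) and in 1 of 21 ubiquitin windows (UBE2K), against 11% of all 27305 promoters of the table. CCAAT was in 6 of 17 proteasome windows, 3 of 21 ubiquitin windows and 33% of all promoters. TTTGAA was in 1 of 17, that of PSMA6, in 0 of 21 and in 13.6% of all. Of the 6 carriers of TGACNNNGC, PSMD3 and PSMD5 fell in 5-FU, PSME4 fell in cytarabine and cytochalasin D, and PSMB3 and UBE2K passed in no drug against untreated cells. PSMD12 was given no value on any 5-FU array. The 5-FU arrays of PSMD5 lay on both sides of 0, and PSME4 in cytochalasin D passed by neither probe alone. Members without TGACNNNGC fell too, such as PSMD11 in 5-FU and PSMA6 in cytarabine. Whether carriers passed more often than other members was not tested.

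Among core particle genes, PSMB1 was lower on every 5-FU array. PSMB1, a structural beta subunit, was at -0.71 and -0.55 on the forward arrays and -0.57 and -0.70 on the reversed ones, and it fell by 0.63 (SE 0.11, limma adjusted p = 0.00429). The 8 other arrays ran from -0.34 to 0.13, so no array of another drug reached the 5-FU range. PSMA4, an alpha subunit, was at -0.38 on forward array 1 and at -1.02 and -0.64 on the reversed arrays, with forward array 2 missing. It was not testable for 5-FU with the channel term, and without it was at -0.67 (limma adjusted p = 0.000536). PSMB5, which carries the chymotrypsin-like site, was at -0.24, -0.22, -0.19 and -0.17 on the 4 5-FU arrays and did not pass (-0.21 ± 0.12, limma adjusted p = 0.36). PSMB10, the inducible trypsin-like subunit of the immunoproteasome, was at 0.09 ± 0.05 in 5-FU and passed in no drug with the channel term.

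PSMB2, a structural beta subunit, was the proteasome gene that rose in 5-FU, at -0.01, 0.39, 0.31 and 0.37 on the arrays and 0.26 ± 0.07 in the fit (limma adjusted p = 0.0268). In cisplatin PSMB2 was at -0.27 and -0.29 and fell by 0.35 (limma adjusted p = 0.0195). Both calls came from 1 of its 2 probes. Probe 2 gave 0.48 in 5-FU (limma adjusted p = 0.0149) and -0.66 in cisplatin (0.012), while probe 1 gave 0.04 (0.735) and -0.05 (0.637). The rise in 5-FU was lost without 5-FU replicate 2.

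**Figure D2:**
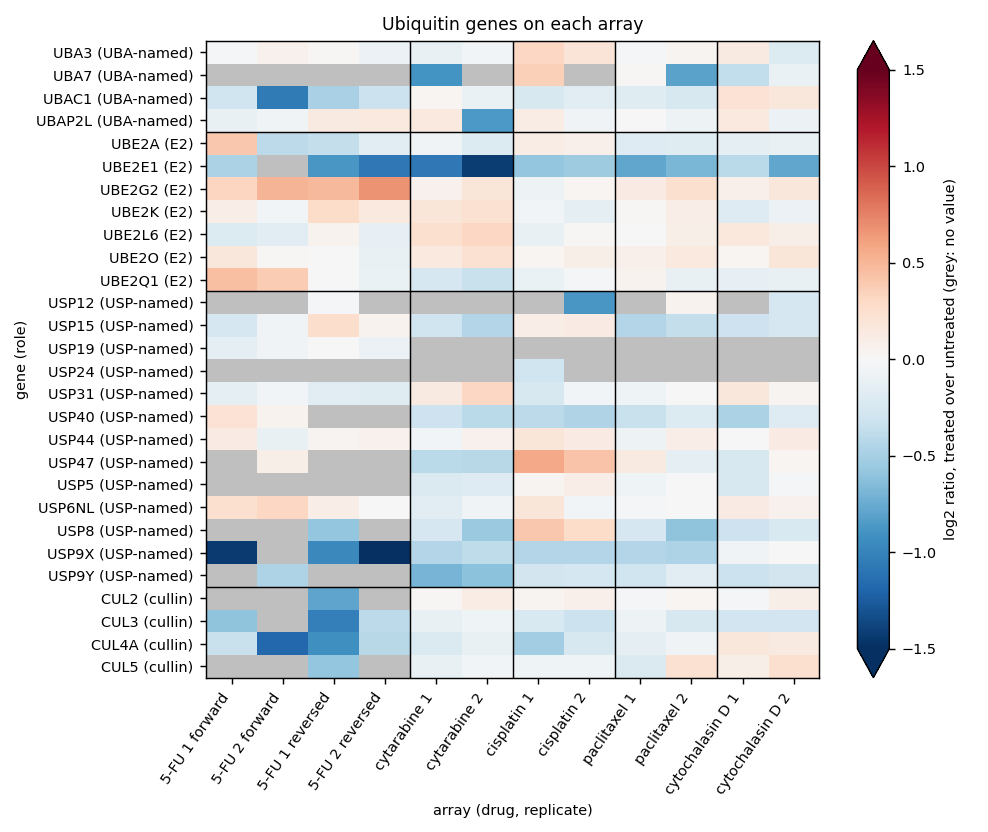
Log2 ratio of treated over untreated RNA for the 28 ubiquitin genes (rows, grouped by role) on the 12 arrays (columns), blue below 0, red above 0 and grey where no value was given. UBE2E1 is blue on each of the 11 arrays that measured it, and USP47 and USP8 are red on both arrays in cisplatin alone.

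Among the cullins, CUL4A and CUL3 were lower in 5-FU. CUL4A, the scaffold of ligases that use DDB1 and act in DNA repair and replication, was at -0.33 and -1.17 on the forward arrays and at -0.91 and -0.41 on the reversed ones. It fell by 0.71 (SE 0.08, a 1.63-fold fall, limma adjusted p = 0.000327). All 4 5-FU arrays were below 0 but they spread widely, and the replicate means were -0.62 and -0.79. The SE takes in these means, so the wide spread within each pair of forward and reversed arrays does not enter it. It thus depends on the assumed pairing by number. CUL4A was also lower in cisplatin, at -0.52 and -0.25 (fitted -0.43, limma adjusted p = 0.0178, lost without cisplatin replicate 1 or without 5-FU replicate 2), and lay above 0 in cytochalasin D, at 0.17 and 0.13. CUL3, the scaffold of ligases with BTB-domain adaptors such as KEAP1, was at -0.61 on forward array 1 and -1.03 and -0.40 on the reversed ones. It could be tested in 5-FU without the channel term alone, at -0.61 (limma adjusted p = 0.00411). CUL2 had 1 value in 5-FU (-0.79) and between -0.03 and 0.11 elsewhere. CUL5 had 1 value in 5-FU (-0.58), from a probe that gave no value on any other array.

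UBE2G2, an E2 of endoplasmic reticulum-associated degradation, was the conjugating enzyme that rose in 5-FU. It was at 0.32 and 0.51 on the forward arrays and 0.49 and 0.67 on the reversed ones (0.50 ± 0.07, a 1.41-fold rise, limma adjusted p = 0.00111). The 8 arrays of the other drugs lay between -0.08 and 0.24, below every 5-FU array. UBAC1 was at -0.29, -1.06, -0.49 and -0.32 in 5-FU and fell by 0.54 (limma adjusted p = 0.00134), with forward array 2 far below the other arrays. Its test rests on the replicate means of -0.39 and -0.69, so the spread within each pair of arrays does not enter it.

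UBE2E1, an E2 of the UBE2E family, was below 0 on every array that measured it. In cytarabine it was at -1.08 and -1.42, in paclitaxel at -0.78 and -0.69, in cisplatin at -0.58 and -0.54, in cytochalasin D at -0.41 and -0.78, and in 5-FU at -0.48, -0.87 and -1.07. With the channel term it fell in cytarabine (-1.05 ± 0.15, a 2.07-fold fall, limma adjusted p = 0.00412) and did not pass in paclitaxel (-0.53, 0.0731), cisplatin (-0.36, 0.131) or cytochalasin D (-0.40, 0.132). Without the channel term all 5 drugs passed, with 5-FU at -0.87 and cytarabine at -1.25.

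**Figure D3:**
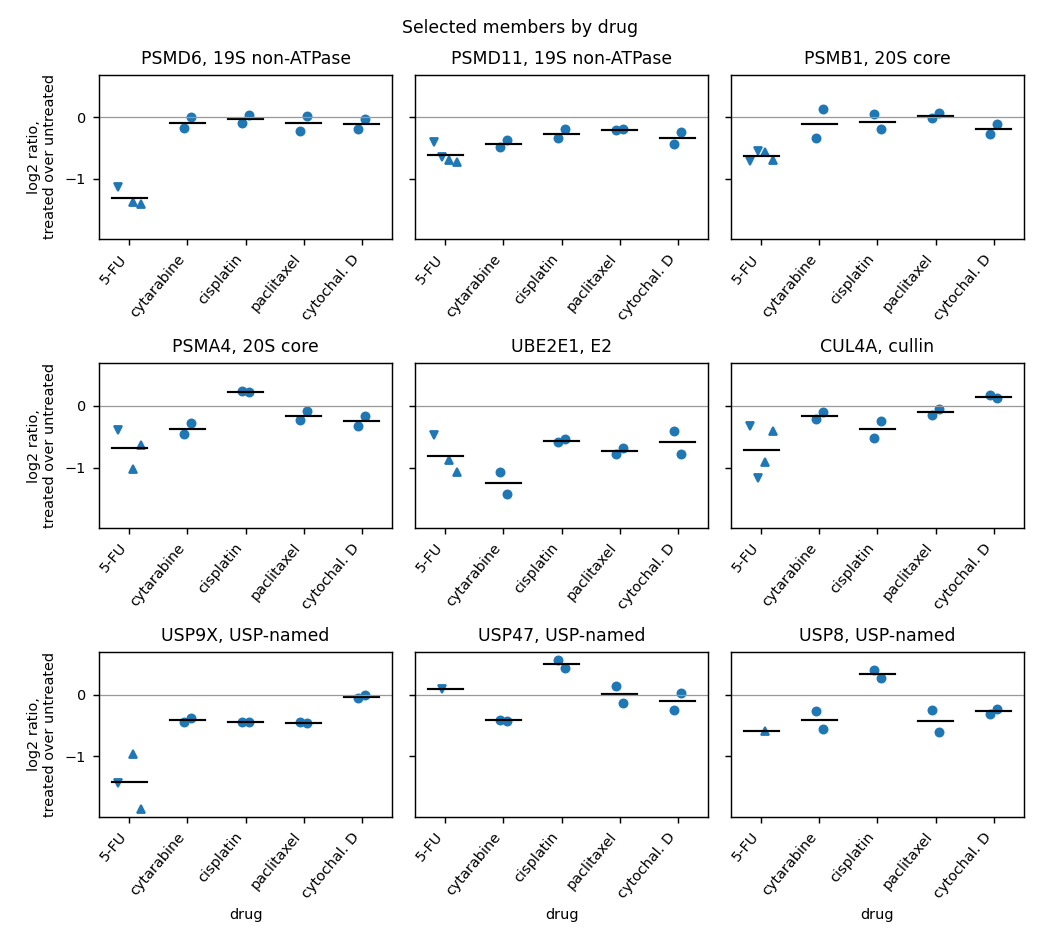
Log2 ratio of treated over untreated RNA (vertical axis) by drug for 9 members, 1 panel each. Each point is an array (down triangle, forward 5-FU array; up triangle, reversed 5-FU array; circle, array of another drug) and each bar is the mean of the arrays shown. PSMD6 stands below -1 in 5-FU alone, USP47 and USP8 are above 0 on both cisplatin arrays, and UBE2E1 lies below 0 in every drug.

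In cytarabine, 7 of 31 members tested passed against 25.2% of all features, so the members passed about as often as the rest of the array. They had 1 higher and 6 lower, and all features had 13.0% higher and 12.2% lower. The 3 proteasome genes that passed, of 14 tested, all fell: PSMA6 (-0.35), PSMD11 (-0.34) and PSME4 (-0.34). Of 17 ubiquitin genes, UBE2E1, USP9X (-0.65) and USP15 (-0.53) fell and UBE2O, an enzyme with both E2 and E3 activity, rose (0.27, limma adjusted p = 0.0339). PSMA6, an alpha subunit of the core, was at -0.29 and -0.33 on the arrays (limma adjusted p = 0.00412). PSME4, the PA200 cap of the core particle, was at -0.35 and -0.32 (limma adjusted p = 0.0204). Its 2 probes differed: probe 1 gave -0.45 (limma adjusted p = 0.023) and probe 2 gave -0.06 (0.542). The count fell to 4 without cytarabine replicate 2. UBE2O and USP9X were not called without the channel term (0.0656 and 0.0544 as adjusted p), under which 15 of 41 members passed and 25.9% of all features.

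USP15, a deubiquitinase that associates with the COP9 signalosome, was lower in 3 drugs. It was at -0.30 and -0.44 in cytarabine, -0.44 and -0.35 in paclitaxel and -0.31 and -0.25 in cytochalasin D, and it fell in each (limma adjusted p = 0.00171, 0.00292 and 0.00603), with and without the channel term. In cisplatin it was at 0.10 and 0.12, above all arrays of those 3 drugs. The cisplatin value joins probes of opposite sign, -0.13 and -0.26 for probe 1 against 0.32 and 0.50 for probe 2. In 5-FU only probe 2 had values, -0.26 and -0.05 forward and 0.26 and 0.06 reversed, with the orientations on opposite sides of 0 and a fitted value of 0.00.

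In cisplatin, 5 of 32 members passed against 20.4% of all features. PSMA4 rose and PSMB2, CUL4A, UBAC1 and USP9X fell, where 10.8% of all features were higher and 9.60% lower. PSMA4 was at 0.23 and 0.22 on the cisplatin arrays and at 0.54 ± 0.10 once its channel effect of -0.32, known from 1 pair of 5-FU arrays, was taken out (limma adjusted p = 0.0125). Without the channel term PSMA4 was at 0.23 with an adjusted p of 0.0716. UBAC1 was at -0.24 and -0.17 and fell by 0.34 (limma adjusted p = 0.0375), and was at -0.20 (0.132) without the term. CUL4A and PSMB2 passed with and without it. The count was 2 without either cisplatin array, and without the channel term it was 8 of 42, where 15.8% of all features passed.

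In paclitaxel, 3 of 31 members passed against 9.26% of all features (3.67% higher, 5.59% lower). USP15 and USP9X fell. PSMD14 is listed as higher (0.35, limma adjusted p = 0.0463) although its arrays were at -0.25 and -0.14. The sign comes from its channel effect, and without the channel term PSMD14 was at -0.20 (0.356). USP15 passed in paclitaxel under both fits, and 2 of 42 members passed without the term, where 9.58% of all features did. Without 5-FU replicate 1 the count was 5. In cytochalasin D, 4 of 31 members passed against 13.4% of all features (5.98% higher, 7.43% lower), and all of them fell: PSMA6 (-0.32), PSME4 (-0.30), USP15 (-0.44) and USP9X (-0.27). PSMA6 was at -0.27 and -0.28 on its arrays. PSME4 by its probes alone was at -0.38 (limma adjusted p = 0.0598) and -0.05 (0.661). Without the channel term 7 of 42 members passed, against 11.0% of all features. No member passed without cytochalasin D replicate 1, 1 did without replicate 2, and 2 did without any 1 array of the cytarabine, cisplatin or paclitaxel groups.

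USP9X, a large deubiquitinase encoded on the X chromosome, shows how far the channel term can matter. On the arrays it was at -0.44 and -0.38 in cytarabine, -0.45 and -0.44 in cisplatin, -0.44 and -0.47 in paclitaxel and -0.06 and -0.01 in cytochalasin D. The channel effect of 0.23, from 1 pair of 5-FU arrays, lowers each of these by the same amount, to -0.65, -0.68, -0.69 and -0.27, and all 4 passed (limma adjusted p = 0.00159, 0.00135, 0.00268 and 0.0487). Without the term none did, with adjusted p of 0.0544, 0.06, 0.0758 and 0.905. In 5-FU itself USP9X had the lowest value of any member. It was at -1.43 on forward array 1 and -0.96 and -1.86 on the reversed arrays. It could be tested there without the term only (-1.53, limma adjusted p = 0.000178).

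**Figure D4:**
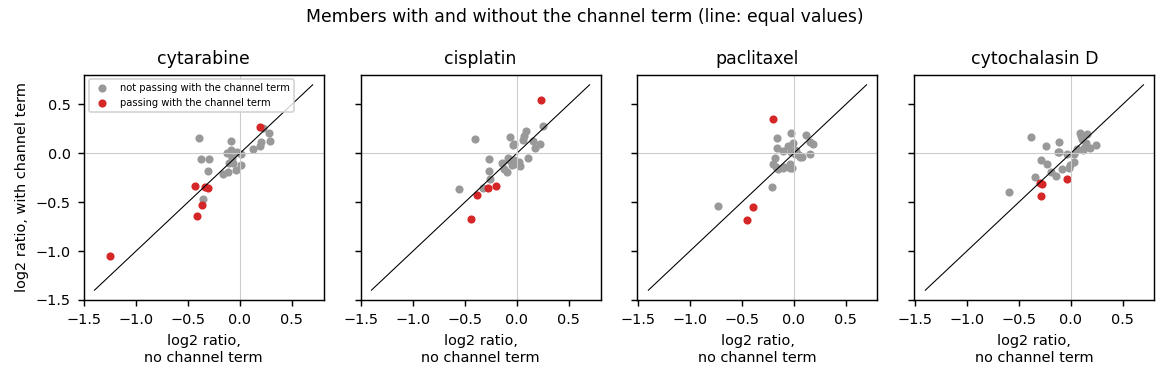
Fitted log2 ratio of each tested member with the channel term (vertical axis) against the value without it (horizontal axis), 1 panel per drug with treated RNA in channel 1. The line marks equal values and red points are members that passed with the term. PSMD14 in paclitaxel moves from -0.20 to 0.35, and PSMA4 in cisplatin from 0.23 to 0.54.

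Without the channel term, 14 of 34 members passed in 5-FU, where 19.1% of all features did. Of the 14, 2 were higher and 12 lower, and of all features 6.21% were higher and 12.9% lower. The members that joined were those measured on 3 arrays: PSMA4, PSMD6, PSMD14, UBE2E1, USP9X and CUL3, all lower. The proteasome genes then had 7 lower and 1 higher of 15 tested. In the other direction, of 51 calls of named members that involve untreated cells or 5-FU, 14 were lost or changed sign when the term was dropped.

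The 6 pairs among cytarabine, cisplatin, paclitaxel and cytochalasin D do not need the channel term. All 10 pairs of the 5 drugs were compared, and p-values were adjusted within each pair over all features tested. Cisplatin differed from cytarabine in 9 of 41 members, against 21.3% of all features. PSMA4 (-0.60 for cytarabine minus cisplatin), PSMA6 (-0.29), UBE2E1 (-0.69), USP8, USP15 (-0.48) and USP47 were lower in cytarabine, and UBE2K (0.30) and UBE2L6 (0.32) were higher. USP9Y (-0.40, limma adjusted p = 0.0206) also passed and was picked for mention after its values were seen. USP9Y is a close homolog of USP9X, and cross-hybridisation between them was not tested.

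USP47, a deubiquitinase of the base excision repair polymerase beta, gave the widest gap. It was at -0.40 and -0.42 in cytarabine and at 0.57 and 0.43 in cisplatin, a difference of -0.91 ± 0.13 (limma adjusted p = 0.00705), 1.88-fold. It lay between these in paclitaxel, at 0.14 and -0.13, and in cytochalasin D, at -0.24 and 0.03. This was the pair difference among these 4 drugs that passed without each replicate in turn. USP8, which acts on receptors sorted at endosomes, was at -0.26 and -0.56 in cytarabine, 0.40 and 0.27 in cisplatin, -0.25 and -0.61 in paclitaxel and -0.31 and -0.23 in cytochalasin D. Cisplatin was the drug with USP8 above 0, and it differed from cytarabine (-0.74 ± 0.15 for cytarabine minus cisplatin, limma adjusted p = 0.0181) and from paclitaxel (0.77 for cisplatin minus paclitaxel, 0.0369). Neither USP47 nor USP8 had more than 1 value in 5-FU (0.08 and -0.58).

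Cisplatin differed from paclitaxel in 2 of 41 members, USP15 (0.50) and USP8, against 5.28% of all features. It differed from cytochalasin D in 6 of 41 members, against 7.34%. PSMA4 (0.47), USP15 (0.39) and USP47 (0.60) were higher in cisplatin, and UBAC1 (-0.39), USP9X (-0.41) and CUL4A (-0.53) were lower. The USP15 differences came mainly from probe 2 (0.80 for cisplatin minus paclitaxel, limma adjusted p = 0.0152), with probe 1 at 0.21 (0.186). These counts depended on single arrays: the 9 became 1 without either cisplatin array and 2 without cytarabine replicate 2, the 2 became 0 without any 1 array of cisplatin, paclitaxel or cytochalasin D, and the 6 became 0 without cisplatin replicate 1 or either cytochalasin D array and 1 without cisplatin replicate 2.

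No member differed between cytarabine and paclitaxel by limma (0 of 41, with 8 at an unadjusted p under 0.05), where 0% of all features passed. None differed between cytarabine and cytochalasin D (0 of 41, with 7 at an unadjusted p under 0.05, against 1.95% of all features) or between paclitaxel and cytochalasin D (0 of 42, with 4 at an unadjusted p under 0.05, against 0.0875%). The member differences ran from -0.52 to 0.25 for cytarabine minus paclitaxel, from -0.66 to 0.35 for cytarabine minus cytochalasin D and from -0.42 to 0.22 for paclitaxel minus cytochalasin D. With 2 arrays a drug, such differences were not resolved from the spread between arrays.

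**Figure D5:**
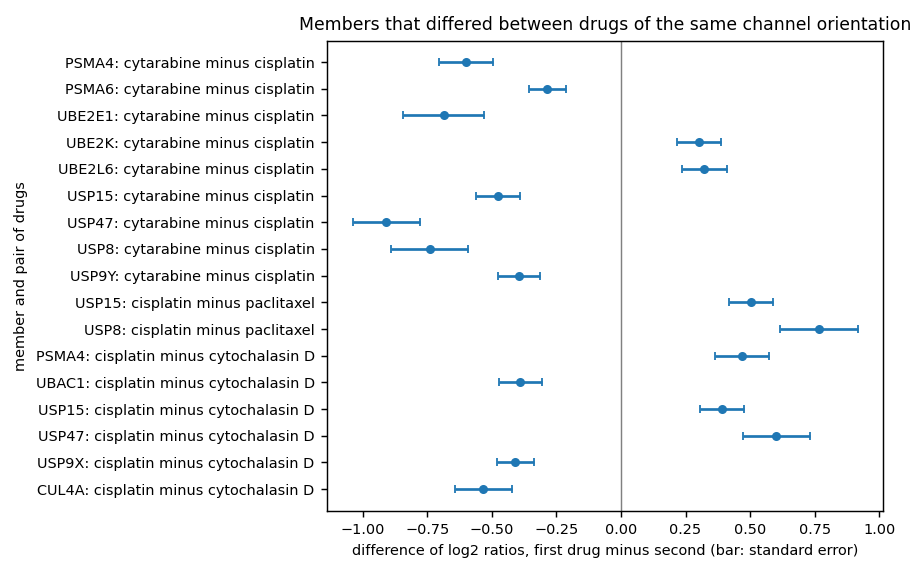
Difference of log2 ratios between drugs of the same channel orientation (points, first drug minus second) with its standard error (bars) for the 17 member differences that passed. The widest is USP47 in cytarabine minus cisplatin, at -0.91, and each of the 17 involves cisplatin.

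The 4 pairs of 5-FU with another drug use the channel term. UBE2G2 was the member that passed against all 4 drugs. It was higher in 5-FU, by 0.61 against cisplatin, 0.46 against cytarabine, 0.46 against cytochalasin D and 0.40 against paclitaxel. CUL4A was lower in 5-FU than in cytochalasin D (-0.81 ± 0.12, limma adjusted p = 0.00349), paclitaxel (-0.56) and cytarabine (-0.50), and did not pass against cisplatin (-0.28). PSMD11 was lower in 5-FU than in paclitaxel (-0.51) and cisplatin (-0.44). PSMD3 was lower than in cisplatin (-0.47), and PSMD5 lower than in cytochalasin D (-0.48) and cytarabine (-0.29). The PSMD5 differences rest on single 5-FU replicates: against cytarabine the value was -0.72 without replicate 1 and 0.15 without replicate 2, and against cytochalasin D -0.91 and -0.04. PSMB1 was lower than in paclitaxel (-0.66, limma adjusted p = 0.0416).

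The counts behind these pairs were 8 of 25 members for cytarabine, 4 of 26 for cisplatin, 5 of 25 for paclitaxel and 7 of 25 for cytochalasin D. Over all features 20.1%, 15.8%, 12.4% and 12.1% passed in the same order. PSMB2 was higher in 5-FU than in cisplatin (0.62), cytarabine (0.46) and cytochalasin D (0.42), from its probe 2, and did not pass against paclitaxel (0.37, limma adjusted p = 0.0517). USP15, from probe 2 in 5-FU and from both probes in the other drugs, was higher than in paclitaxel (0.55), cytarabine (0.53) and cytochalasin D (0.44). With probe 2 alone on both sides it passed against paclitaxel (0.55) and cytarabine (0.51) and not against cytochalasin D (0.39, limma adjusted p = 0.0716). PSMA6 (0.26) was higher and UBE2L6, the E2 of the ubiquitin-like protein ISG15, lower (-0.32) in 5-FU than in cytarabine, as was USP31 (-0.39). UBAC1 was lower (-0.59) and UBE2K, which builds ubiquitin chains, higher (0.35) in 5-FU than in cytochalasin D. Leaving out 1 array or replicate took the 8 for cytarabine to as few as 3 (without cytarabine replicate 2), the 7 for cytochalasin D to 2 (without its replicate 1) and the 5 for paclitaxel to 1 (without its replicate 1), and took the 4 for cisplatin to 8 (without 5-FU replicate 2).

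Of the 33 members that could be tested against untreated cells in at least 1 drug, 16 passed in at least 1. The share of all features that passed in at least 1 drug was not counted, so this count is no result about the members. It includes PSMD14, listed as higher in paclitaxel with its arrays at -0.25 and -0.14. UBA3, the catalytic subunit of the NEDD8-activating enzyme, was at 0.32 and 0.19 in cisplatin (fitted 0.28, limma adjusted p = 0.075) and between -0.21 and 0.13 on the other arrays. UBA7, which activates ISG15, had values on 6 arrays, none of them 5-FU, from -0.89 to 0.36, and was not tested. PSMC2, an ATPase, was at 0.29 and 0.29 in cytarabine (fitted 0.13, limma adjusted p = 0.406). UBE2Q1 was at 0.45 and 0.38 on the forward 5-FU arrays and at -0.01 and -0.10 on the reversed ones, a difference that follows the orientation. UBE2A, an E2 of DNA damage tolerance, was at 0.40 on forward array 1 and between -0.39 and -0.16 on the other 5-FU arrays. Its probes disagreed on forward array 1, with probe 1 at 1.08 and probe 2 at -0.27. PSMB5 was at 1.01 on paclitaxel array 1 and had no value on array 2.

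Other genes of the pathway were read from a list of 108 symbols of ubiquitin-like proteins, ligases, adaptors, other deubiquitinases and chaperones, of which 45 were on the array. In 5-FU 2 rose and 2 fell of 23 tested, in cytarabine 6 and 3 of 33, in cisplatin 8 and 2 of 34, in paclitaxel 3 and 1 of 34, and in cytochalasin D 4 and 2 of 35. In the same order 17.4%, 27.3%, 29.4%, 11.8% and 17.1% of the list passed, against 16.8%, 25.2%, 20.4%, 9.26% and 13.4% of all features. Without the channel term 22.9%, 26.2%, 15.9%, 6.98% and 9.30% of the list passed. All features then had 19.1%, 25.9%, 15.8%, 9.58% and 11.0%. MDM2 is among the rises in 5-FU, and its direction there was fixed in advance because it set the sign of every array. NAE1, the partner of UBA3 in the NEDD8-activating enzyme that cullins depend on, was at -0.81 and -0.52 on the forward 5-FU arrays and -1.07 and -0.80 on the reversed ones, and fell by 0.80 (limma adjusted p = 0.00916). CBLB, a ligase of receptor signalling, fell in cytarabine (-1.89), paclitaxel (-1.59), cytochalasin D (-1.16) and cisplatin (-1.13), and was at 0.10 in 5-FU (limma adjusted p = 0.632). BARD1, the ligase partner of BRCA1, fell in cytarabine (-0.73) and cytochalasin D (-0.65) and rose in cisplatin (0.56). The list was set up for counts only, and NAE1, CBLB and BARD1 were picked for mention after their values were seen. Other calls of the list are not described, among them TNFAIP3 in cisplatin (2.49, limma adjusted p = 6.1e-05).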

How the data were processed

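The members, lists and tests were chosen with earlier results of these data known. Per the labels, each of the 12 arrays compared treated with untreated H460 RNA. The values deposited by the authors are log ratios of the channels, taken as log2; their normalization, spot filter and log base are not stated. Intensities were not used here, and the number of arrays limits the precision.

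The table has 8170 probes (5930 with 1 gene symbol, 79 with several, 2161 with none). Probes of a gene were averaged, which gave 7739 features. Arrays were turned to treated over untreated and centred on their median. A 5-FU replicate is the mean of its forward and reversed array, which were paired by number as an assumed dye swap. The fit (limma 3.58.1, R 4.3.3, tested on simulated data) had 10 replicates and 1 channel effect observation, weighted 4 with 2 pairs of 5-FU arrays and 2 with 1. Testing a drug needed both its replicates and, outside 5-FU, at least 1 complete 5-FU pair. Pairs among the other 4 drugs used their 8 arrays. The threshold was a Benjamini-Hochberg adjusted p under 0.05. Named were up to 8 members each way per drug, up to 4 per pair, and a list of 34 symbols, of which 11 are members. Other members are given by array values, by fitted values or in the figures only. Upstream sequences are from RefSeq (GRCh38.p14). Alternatives were no channel term, every array as its own observation, other scaling, complete features, a replicate block, single probes, all drugs in 1 fit and each replicate left out.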

Additional observations from a re-analysis of the deposited data

Results flagged for a closer look

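In 15 differences between drugs that passed (limma, adjusted p under 0.05), every measured array of one drug lay on the opposite side of 0 from every array of the other. Over the 10 pairs together this was 4.31% of 348 member tests and 36.6% of the 41 that passed, against 3.81% of the tests of all features and 45.4% of those that passed, so the members show it about as often as the array as a whole. CUL4A was below 0 in 5-FU and in cisplatin and above 0 in cytochalasin D (differences of -0.81 and -0.53). PSMA4 was above 0 in cisplatin and below 0 in cytarabine (cytarabine minus cisplatin -0.60) and in cytochalasin D (cisplatin minus cytochalasin D 0.47). PSMD3 was below 0 in 5-FU and above 0 in cisplatin (-0.47). UBAC1 was below 0 in 5-FU and in cisplatin and above 0 in cytochalasin D (-0.59 and -0.39). UBE2K was above 0 in cytarabine and below 0 in cisplatin (0.30). USP15 was above 0 in cisplatin and below 0 in cytarabine, paclitaxel and cytochalasin D (cytarabine minus cisplatin -0.48, cisplatin minus paclitaxel 0.50, cisplatin minus cytochalasin D 0.39). Its sign in cisplatin is that of the mean of its probes, and probe 1 was below 0 there, at -0.13 and -0.26. USP31 was below 0 in 5-FU and above 0 in cytarabine (-0.39). USP47 was below 0 in cytarabine and above 0 in cisplatin (-0.91). USP8 was above 0 in cisplatin and below 0 in cytarabine (-0.74 for cytarabine minus cisplatin) and in paclitaxel (0.77 for cisplatin minus paclitaxel). Array signs in drugs with treated RNA in channel 1 hold the channel effect, which cancels in pairs among those drugs.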

How the results depend on the processing

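Of 67 calls of named members, 67 were kept with no centring, 54 with arrays scaled to a common spread and 18 without each replicate in turn. The latter are the calls lost in no refit that could be run. They were, in 5-FU, CUL4A, PSMB1, PSMD11, PSMD3, UBAC1 and UBE2G2, in cytarabine PSMA6, UBE2E1, USP15 and USP9X, in cisplatin USP9X, in paclitaxel USP15 and USP9X, and between drugs PSMB2 and UBE2G2 (5-FU and cisplatin), USP15 (5-FU and cytarabine, 5-FU and paclitaxel) and USP47 (cytarabine and cisplatin). The UBE2E1 and USP9X calls could not be refit without 5-FU replicate 1, which holds their only complete pair of 5-FU arrays. The USP9X calls were also lost without the channel term. Without the channel term 14, 15, 8 and 7 members passed in 5-FU, cytarabine, cisplatin and cytochalasin D, and 15 of 32, 7 of 33 and 8 of 32 for 5-FU against cytarabine, cisplatin and paclitaxel, where 23.9%, 16.2% and 13.9% of all features passed. For the settings that follow, and for each replicate left out, the share of all features was not counted. Their counts show how the member calls moved with the setting and are no result about the members. With every array as its own observation 15, 4, 0, 1 and 2 passed in 5-FU, cytarabine, cisplatin, paclitaxel and cytochalasin D, and 9 and 8 for 5-FU against cisplatin and paclitaxel. With arrays scaled 4 passed in cytarabine, 5 for 5-FU against cytarabine and 4 for cytarabine against cisplatin. For cytarabine against cytochalasin D 1 passed with all drugs in 1 fit and 1 with complete features, which also gave 1 for cisplatin against paclitaxel and 3 for cisplatin against cytochalasin D. Differences between replicates 1 and 2 correlated at -0.0611 to 0.0904 between drugs. These correlations and the labels cannot show whether arrays of 1 number belong together across drugs. With the number as a replicate block 2 passed in cytochalasin D and 3 for cisplatin against cytochalasin D.

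Leaving out 1 replicate gave 8 to 11 members in 5-FU, 4 to 7 in cytarabine, 2 to 5 in cisplatin, 2 to 5 in paclitaxel and 0 to 4 in cytochalasin D. For 5-FU it gave 3 to 9 against cytarabine, 3 to 8 against cisplatin, 1 to 6 against paclitaxel and 2 to 7 against cytochalasin D. It gave 1 to 6 for cytarabine against cisplatin, 0 to 2 for cisplatin against paclitaxel and 0 to 4 for cisplatin against cytochalasin D. A drug left with 1 replicate was assumed to vary like the others.

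Signs turned for PSMD14 without the channel term (-0.39 in cytarabine, -0.20 in paclitaxel). PSMD5 ranged over the refits without 1 replicate from -0.41 to 0.43 in cytarabine, from -0.47 to 0.37 in cisplatin and from -0.72 to 0.15 for 5-FU against cytarabine, the ends being those without a 5-FU replicate. PSMB2 by probe 1 alone gave -0.066 for 5-FU against cytarabine and -0.0302 against cytochalasin D. The cause of these changes was not tested, beside the arithmetic of the term or the probe left out.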
